A study of Mus musculus with 6 samples.

Results

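The genes described here are the 93 cytosolic ribosomal protein genes of a mouse RNA-seq table. They are the symbols that begin with Rpl or Rps and a digit, together with Rpsa, Rplp0, Rplp1 and Rplp2. Symbols marked as pseudogenes by "-ps" and the Rps6k kinases were left out. The 93 genes took up 102 of the 48100 rows of the table, which describes 47086 loci, and for the 5 symbols with several loci the locus with the highest mean was used. For 2 members the locus is shared with another symbol, so its FPKM need not be that of the member alone. The RNA came from primary hippocampal cultures that were prepared from C57BL/6 pups on postnatal day 0 and kept for 14 days in vitro. There were 3 libraries labelled wild type (WT) and 3 labelled Fmr1 KO, and the labels name no treatment. The study asked how the transcriptome of hippocampal neurons differs without Fmr1, the gene for the RNA-binding protein FMRP that is lost in fragile X syndrome. For its mice in general the study gives males, the KO animals and their WT littermates, bred from heterozygous mothers. The pups' sex, the litter of each library and the design of the KO allele are not given in the sources used.

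A cytosolic ribosome is built from a small 40S and a large 60S subunit. The Rps genes encode the proteins of the 40S subunit, which reads the mRNA, and the Rpl genes those of the 60S subunit, which joins the amino acids. Most of their transcripts start with a C and a run of further pyrimidines, the terminal oligopyrimidine (TOP) motif, through which mTOR and LARP1 control their translation. Ribosomal protein genes are also known for the many intronless copies, made by reverse transcription of their mRNAs, that lie scattered over mammalian genomes. FMRP binds ribosomes and represses translation, and excess protein synthesis is a known feature of Fmr1 KO neurons.

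Values are FPKM, fragments per kilobase of transcript and scaled by the mapped fragments of the library, as the authors deposited them for each library. FPKM do not give the number of reads, so the absolute depth is unknown and no counting interval can be given. At loci with low values the most common ratio of WT library 1 to another library was 1.34 and 1.25 for WT libraries 2 and 3, and 1.12, 1.1 and 1.11 for KO libraries 1 to 3. FPKM per fragment falls as depth rises, so a ratio above 1 would mean that the other library is deeper than WT library 1. That ratio is the depth of the other library relative to WT library 1 only if the mapped fragments set the scale. Between 73.7 and 80.6% of a library's FPKM sum belonged to Bc1, a noncoding RNA. In WT, Fmr1 itself had 19.0, 19.5 and 19.7 FPKM, and the libraries labelled Fmr1 KO had 23.1, 21.8 and 18.5 FPKM. The Fmr1 locus therefore does not separate the labels, and every direction given here is between libraries as labelled. The defining neuronal markers Rbfox3, Map2, Tubb3, Snap25 and Syt1 summed to 963 to 994 FPKM in WT and 989 to 1056 in KO. The markers did not move together. The log2 change from WT to KO was above 0 for 2 of them and below 0 for 3. It ran from 0.26 for Map2 to -0.16 for Snap25. The astrocyte markers summed to 1322 to 1522 and 1353 to 1501 FPKM, so the cultures were not neurons alone. In bulk RNA of such a mixture, fewer cells of a type and less RNA per cell cannot be told apart.

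Ribosomal protein genes are among the most highly expressed genes of any cell, and 18 of the 93 members had a mean of at least 100 FPKM over the 6 libraries. Another 21 lay between 10 and 100 FPKM and 27 between 1 and 10 FPKM. The other 27 lay below 1 FPKM, a group that held core ribosomal proteins next to the tissue-restricted paralogs. Of these, 7 were listed at 0 in all 6 libraries, namely Rps10, Rps18, Rps28, Rps4l, Rpl10l, Rpl32l and Rpl39l. The means of the other 20 were 0.0288 FPKM for Rps12 at the low end and 0.848 FPKM for Rpl19 at the high end. The others in that range were Rpl12, Rpl28, Rpl24, Rpl10, Rpl9, Rps12l1, Rpl3l, Rps29, Rpl36a, Rps13, Rpl27, Rpl37, Rpl17, Rps16, Rps23, Rpl23a, Rpl11 and Rps27a. Rps10, Rps18 and Rps28 are parts of every 40S subunit, so a listed 0 at these genes is not evidence that the transcript was absent.

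**Figure D1:**
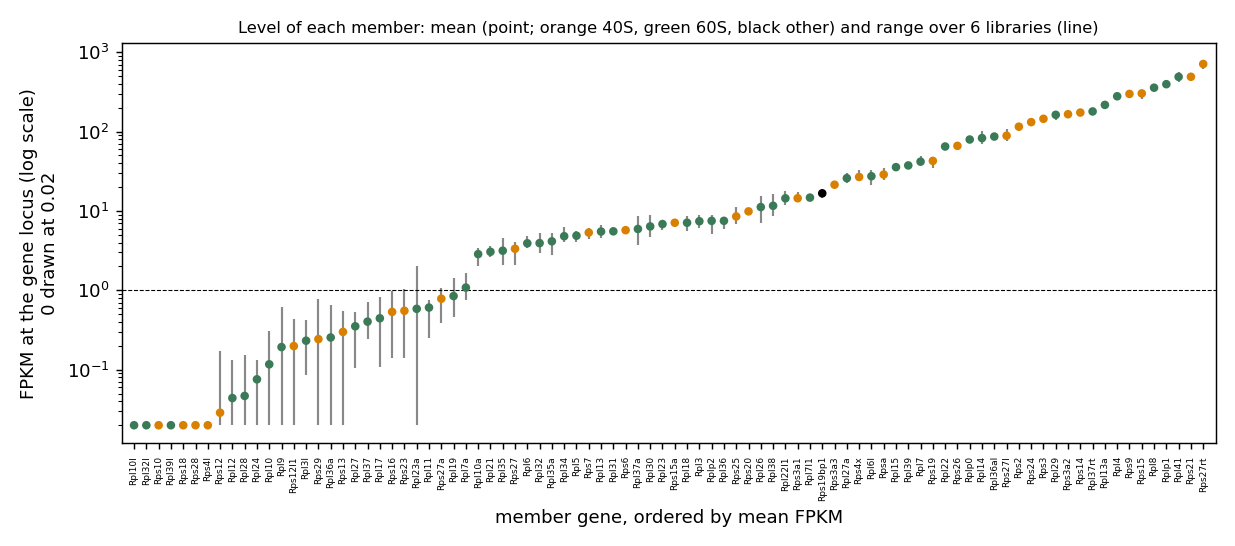
FPKM at the locus of 88 of the 93 members on a log scale, ordered by the mean of the 6 libraries, with the range over the libraries as a line and with 0 drawn at 0.02. The 27 members left of the first point above the dashed line at 1 FPKM include 7 listed at 0 in every library, and the highest member, Rps27rt, has a mean of 711 FPKM.

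Intronless copies of many of these genes were listed at far higher FPKM than the genes. A copy was defined as a GENCODE M21 transcript of at most 2 exons that matched at least 80% of a member's coding sequence at 95% identity or more. The search found 563 copies, 556 of them with a single exon, of which 517 had a locus in the table. Of the members that are not themselves such copies, 75 had at least 1 copy in the table. In 60 of the 75 the copies together had a higher mean FPKM than the gene, in 46 more than 10 times and in 23 more than 100 times the gene's value. The median gene among the 75 was at 5.73 FPKM, and the median for gene plus copies was 260 FPKM. The gene's own locus held a median of 3.66% of that sum. FPKM of a gene and its copies were simply added, although their transcript lengths differ, so the sums are approximate.

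The clearest cases were core subunit proteins with an empty or nearly empty gene locus. Rps29, a small zinc-binding protein of the 40S subunit, lies on chr12 at 69157721 to 69159186 (GRCm38). Its WT libraries had 0, 0.331 and 0.347 FPKM and its KO libraries 0.782, 0 and 0 FPKM. Its copy Gm14303 on chr2, at 172509521 to 172509691, was at 1537, 1368 and 1484 FPKM in WT and at 1715, 1683 and 1688 FPKM in KO, with 100% identity to the coding sequence. The gene was therefore near 0 in both genotypes while one copy had the level of a major ribosomal protein transcript. Rps28, at 0 in all libraries, had the copy Gm10443 at 499, 472 and 524 FPKM in WT and 553, 578 and 634 FPKM in KO. Rps6, the 40S protein that the S6 kinases phosphorylate and a common readout of mTOR signalling, was at 6.09, 5.18 and 5.78 FPKM in WT and 6.24, 5.67 and 5.44 FPKM in KO. Its copy Rps6-ps4 held 275, 233 and 250 FPKM in WT and 262, 256 and 249 FPKM in KO. The groups overlapped at both the Rps6 gene and its copy.

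The sequences below show how far such a gene and its copy agree where reads would cross an exon junction. Each is a run of 30 coding bases across the junction of 2 exons of the gene, read from GENCODE M21, and it also stands without a gap in the single exon of the copy named. Capitals mark the 2 bases on each side of the junction. The 4 junctions are from the genes below 1 FPKM whose copies had the highest FPKM.
Rps29 (chr12, minus strand, exon end 69158997, next exon start 69158760) and Gm14303 (chr2:172509615-172509644, minus strand): gggttcccgctctTGCCgcgtctgctccaa
Rpl36a (chrX, plus strand, exon end 134586578, next exon start 134587451) and Rpl36a-ps2 (chr3:145879182-145879211, plus strand): attttccgcaaaaAGGCtaaaactacaaag
Rps23 (chr13, plus strand, exon end 90924446, next exon start 90924537) and Rps23-ps1 (chr3:37715010-37715039, plus strand): ctgaacttcattgAGGAaaatgatgaagtt
Rps28 (chr17, minus strand, exon end 33824299, next exon start 33823330) and Gm10443 (chr6:86334103-86334132, plus strand): ggacagtgcacgcAGGTgcgagtggaattc

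A read that crosses such a junction matches the copy end to end, but matches the gene only if it is split over the intron. The 82 members with a junction in the coding sequence had 287 of them with at least 15 coding bases on each side. Of these, 234, or 81.5%, were found letter for letter in at least 1 copy. For 61 of the 82 members all coding junctions were found in copies, and for 8 none was. Rpl8, Rpl41, Rps3, Rplp2, Rps27l, Rpl3l and Rps19bp1 were among these 8. How the authors placed reads that match several loci is not stated in those sources, and its part in these levels was not tested. The FPKM of a gene with a near-identical copy is uncertain for that reason, and so is that of the copy.

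**Figure D2:**
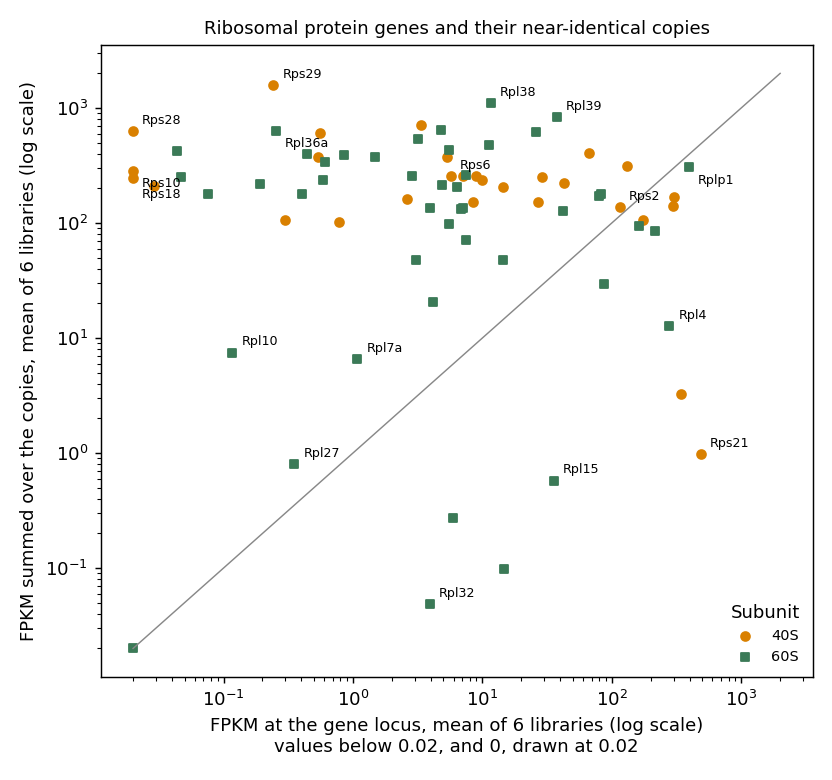
Mean FPKM over 6 libraries at the locus of each of the 75 genes with a copy in the table (x axis, log scale) against the FPKM summed over its copies (y axis, log scale), with the line of equality; values under 0.02 are drawn at 0.02. Of the 75 points, 60 lie above the line, led by Rps29 with 0.243 FPKM at the gene and 1580 FPKM at its copies.

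The number of copies found and the level at the gene were only weakly related. Across the 84 multi-exon members, the Spearman correlation between the number of copies and the gene's mean FPKM was -0.32, a description over genes that share the same libraries. Of the 517 copies with a locus, 152 were listed at 0 in every library, 145 had a mean of at least 1 FPKM and 52 a mean of at least 100 FPKM. Usually a single copy held the signal. In 42 of the 65 genes whose copies summed to at least 10 FPKM, 1 copy held at least 90% of the sum. The 10 members that are not copies and for which none was found had a median of 52.7 FPKM. They include Rps19bp1, and also Rpl39l and Rpl3l at 0 and 0.232 FPKM. The 7 members without a coding sequence could not be searched for copies. Rps4l, at 0 FPKM, is 1 of these 7 and is also counted among the 10. That median therefore includes a gene that was not searched.

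A few genes stayed low with their copies included. Rpl10, the X-linked 60S protein of the subunit's joining face, lies 5.59 Mb from Fmr1 and was at 0.206, 0.31 and 0 FPKM in WT and at 0, 0.0937 and 0.0930 FPKM in KO. With its 9 copies it came to 7.07, 6.30 and 6.62 FPKM in WT and 9.97, 8.94 and 6.59 FPKM in KO. Rpl27 summed to between 0.562 and 2.09 FPKM over the libraries, and Rpl7a, which had 28 copies in the table, to a mean of 7.67 FPKM. Copies of other kinds were not searched, so these sums need not hold every locus that shares sequence with the gene.

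In other genes the copies added little. Rps21 had 1 copy at 0.986 FPKM beside 490 FPKM at the gene, and Rpl4 had 1 at 12.8 FPKM beside 279 FPKM. The highest gene loci were Rps27rt with 711, Rps21 with 490, Rpl41 with 490, Rplp1 with 396 and Rpl8 with 357 FPKM. Rps21 and Rpl41 encode very small proteins of the 40S and 60S subunits, and Rplp1 is 1 of the acidic stalk proteins that engage the elongation factors. The ranges of Rps21 and Rpl41 overlapped over the 6 libraries, at 447 to 535 FPKM and 426 to 563 FPKM.

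Some members of the list are themselves such copies with a gene name. There were 7 of them, all with a single exon except Rpl37rt, which has 2: Rps27rt, Rpl37rt, Rps3a2, Rps3a3, Rpl6l, Rps12l1 and Rpl32l. Rps27rt was 100% identical to the coding sequence of Rps27, the zinc-finger protein of the 40S subunit, and was listed at 732, 621 and 682 FPKM in WT and 764, 725 and 739 FPKM in KO. Rps27 itself was at 4.07, 3.06 and 2.11 FPKM in WT and 3.63, 3.68 and 3.52 FPKM in KO. The copy lies on chr9 at 114982366 to 114982739, within a row of the table that spans 114977625 to 115233273. The FPKM listed for Rps27rt is that of this whole row. Rpl37rt, on chr5, held 179 FPKM beside 0.404 FPKM for its parent Rpl37. Rps19bp1, which the symbol rule also takes in, encodes a protein that binds Rps19 and is not a ribosomal protein, and was at 16.7 FPKM.

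Start-site sequences bear on the TOP motif. RefSeq promoters (GRCm38.p6) were given for 68 of the members. A C followed by at least 5 more C or T, beginning within 5 bases of the annotated start on the transcribed strand, was found in 28 of the 68, or 41.2%. The same run was found in 3229 of 27025 genes, or 11.9%. Each window below runs from 10 bases before the start to 20 bases from it, and capitals mark the run. Rps6 and Rplp2 are shown for their roles in the results, and the Rps27 family because its copy holds most of the family's FPKM.
Rps6 (chr4:86857348-86857377, minus strand): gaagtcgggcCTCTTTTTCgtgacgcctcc
Rplp2 (chr7:141447641-141447670, plus strand): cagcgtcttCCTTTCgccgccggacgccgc
Rps27 (chr3:90213629-90213658, minus strand): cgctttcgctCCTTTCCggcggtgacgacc
Rps27rt (chr9:114982720-114982749, minus strand): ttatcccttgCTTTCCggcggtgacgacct
Rps27l (chr9:66946076-66946105, plus strand): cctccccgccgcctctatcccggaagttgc

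The run at the annotated start of the intronless Rps27rt was 1 base shorter than that of Rps27, and no run began within 5 bases of the start of the paralog Rps27l. A match of letters is a description and not a measured start site. Of the tested members, 22 had the run and a median log2 change of 0.08, with 19 above 0, and 25 had a promoter without it and a median of 0.01, with 15 above 0. The median level at the gene locus was 13.0 FPKM with the run and 26.8 FPKM without it. The difference between these groups in log2 change was not tested, and neither was the part of their levels in it.

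The comparison of the genotypes covered the 66 members with a mean of at least 1 FPKM in WT or KO, 26 of the 40S subunit, 39 of the 60S subunit and Rps19bp1. None of the 66 differed between libraries labelled Fmr1 KO and WT at a Benjamini-Hochberg adjusted p below 0.05 in limma, fitted on log2(FPKM + 0.1) over all 13195 tested loci. Over all loci, 0.0909% were called higher and 0.174% lower. The lowest adjusted p among the members was 0.14. At an unadjusted p below 0.05, 9 members were higher and 1 was lower, which is to be read against 6.99% of all loci higher and 7.77% lower. The log2 change was above 0 for 49 of the 66 members and below 0 for 17, with a median of 0.07 beside 0.005 for all tested loci, of which 51.7% were above 0. The median was 0.08 for the 40S genes, 22 of 26 above 0, and 0.05 for the 60S genes, 27 of 39 above 0.

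The size of the differences was small. In 59 of the 66 members the log2 change was within 0.25 of 0. Among the 39 members at 10 FPKM or more it ran from -0.09 to 0.25, with a median standard error (SE) of 0.07. Among the 27 members below 10 FPKM it ran from -0.47 to 0.56, with a median SE of 0.15. The largest values in both directions therefore came from weakly listed loci. On the log2(FPKM + 0.1) scale the change of a low gene is understated.

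**Figure D3:**
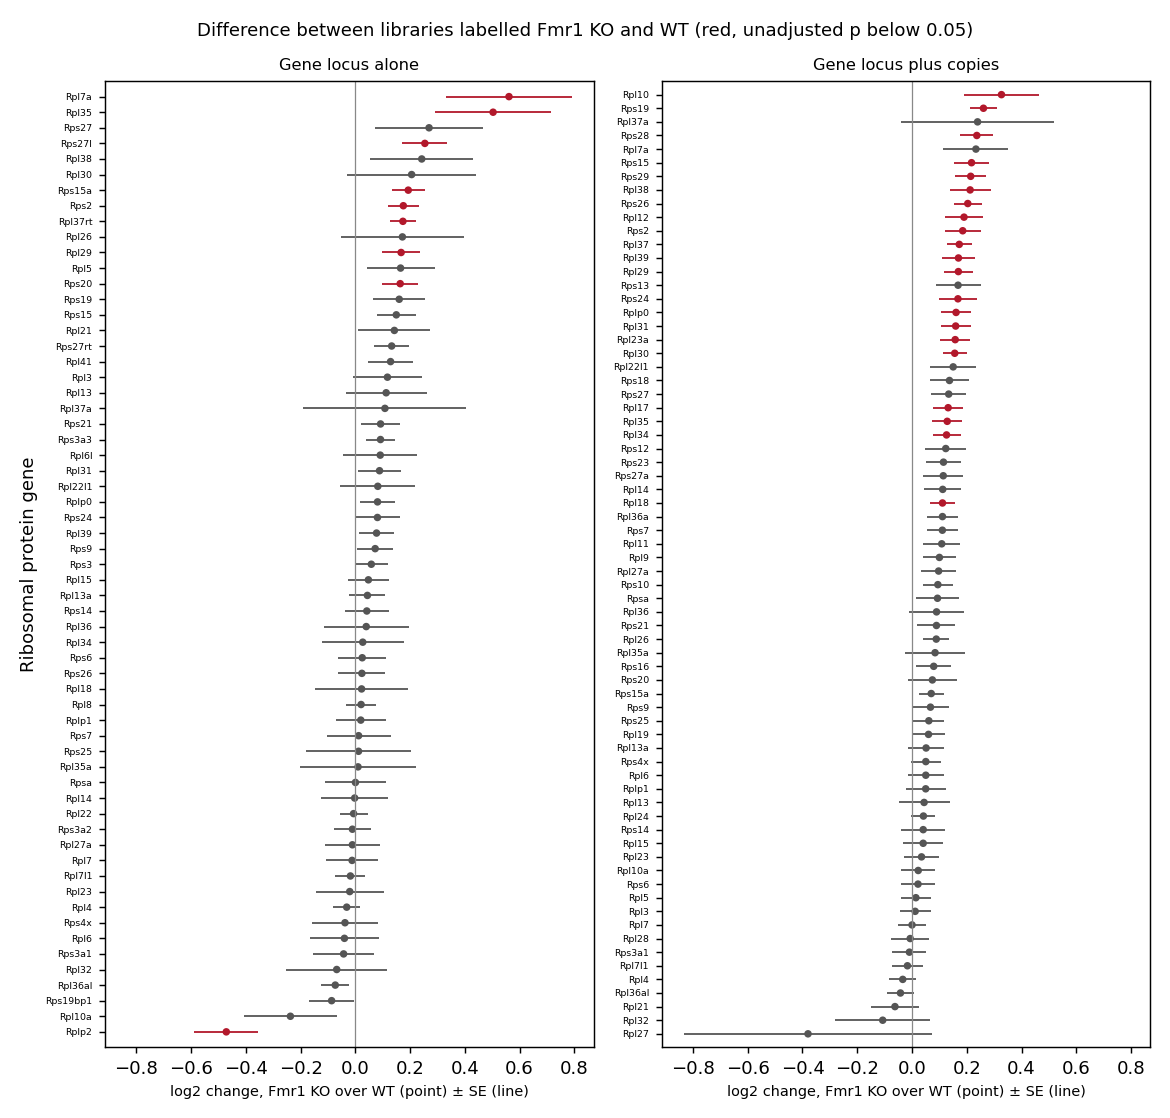
Log2 change between libraries labelled Fmr1 KO and WT, with 3 libraries each, for 61 of the 66 tested members (left, gene locus alone) and for 70 of the 74 genes with copies (right, gene plus copies), as points with the SE as a line. Red marks an unadjusted limma p below 0.05. Most points lie right of 0 on both sides, and none passes the adjusted test.

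The lowest unadjusted p belonged to a protein of the 60S stalk. Its acidic proteins Rplp1 and Rplp2 form dimers on Rplp0 and recruit the translation factors. Rplp2, at chr7:141447463-141451350, was at 8.88, 9.02 and 8.22 FPKM in WT and 6.78, 7.05 and 5.10 FPKM in KO, so that every KO library lay below every WT library. Its log2 change was -0.47 (SE 0.12), with an unadjusted p of 0.00331 and an adjusted p of 0.14 in limma. No copy of Rplp2 was found that met the limits of the search. Over all loci, 10.3% had all KO libraries below all WT libraries, and Rplp2 was the only tested member among them.

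The other stalk proteins had values nearer to 0. Rplp1 was at 448, 355 and 377 FPKM in WT and 434, 382 and 378 FPKM in KO, with a log2 change of 0.02 (SE 0.09). Rplp0 was at 84.8, 72.3 and 75.1 FPKM in WT and 83.7, 79.5 and 81.7 FPKM in KO, with a log2 change of 0.08 (SE 0.06). Both ranges overlapped. The difference between Rplp2 and its partners was not tested.

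In 7 tested members every KO library lay above every WT library, against 10.8% of all tested loci. They were Rpl7a, Rps15a, Rps20, Rps3a3, Rps27l, Rps2 and Rpl37rt. Rpl37rt, the named copy of Rpl37, was at 176, 161 and 169 FPKM in WT and 191, 188 and 191 FPKM in KO, a log2 change of 0.17 (SE 0.05, adjusted p = 0.161 in limma). Rps2, a 40S protein near the mRNA entry, was at 110.0, 102 and 114 FPKM in WT and 117, 122 and 128 FPKM in KO, with a log2 change of 0.18 (SE 0.06, adjusted p = 0.223 in limma). Both differences exceeded the SD within a genotype, which was 7.30 FPKM in WT and 1.86 FPKM in KO for Rpl37rt and 6.20 and 5.62 FPKM for Rps2. This is no separate support, because both genes are named here for the separation of their libraries.

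Rps27l, a paralog of Rps27 that is also known as a target of p53, was at 87.8, 77.5 and 77.1 FPKM in WT and 88.9, 92.5 and 108 FPKM in KO. The lowest KO library was just above the highest WT library, and the log2 change was 0.25 (SE 0.08, adjusted p = 0.222 in limma), or 0.17 without KO library 3. Rps15a had the narrowest spread, with 6.59, 6.57 and 6.71 FPKM in WT and 7.45, 7.79 and 7.54 FPKM in KO, a log2 change of 0.19 (SE 0.06). Its copies, however, held 259 FPKM, and the sum of gene and copies gave a log2 change of 0.07.

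Rps20 was at 9.62, 8.97 and 9.36 FPKM in WT and 11.1, 9.93 and 10.4 FPKM in KO, with the lowest KO library close to the highest WT library. Among the members at an unadjusted p below 0.05 were also Rpl7a with a log2 change of 0.56 (SE 0.23), Rpl35 with 0.50 (SE 0.21) and Rpl29 with 0.17 (SE 0.07), and Rps20 had a log2 change of 0.16 (SE 0.06). Rpl7a and Rpl35 lay at 1.08 and 3.16 FPKM. With copies added, the log2 change was 0.23 for Rpl7a, 0.13 for Rpl35 and 0.07 for Rps20, and without WT library 2 that of Rpl29 was 0.11. Rps27, also among the largest positive values, had a log2 change of 0.27 (SE 0.20) and overlapping groups, and it was 0.49 without WT library 1, 0.03 without WT library 3 and 0.13 with copies added.

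Among the most negative values after Rplp2 were -0.24 (SE 0.17) for Rpl10a, -0.09 (SE 0.08) for Rps19bp1 and -0.07 (SE 0.05) for Rpl36al. The groups of all 3 overlapped. Rpl10a was low at the gene locus, at 2.86 FPKM, and with its copy the log2 change was 0.02. Rpl21, also among the members with the lowest tested levels (3.06 FPKM), had a log2 change of 0.14 (SE 0.13) at the gene and of -0.06 with its copies. Of the 53 members tested both alone and with copies, 9 had opposite signs in the 2 fits. Rpl10a was at -0.41 without KO library 2 and -0.06 without KO library 3. Rps19bp1 was at -0.03 without WT library 1, -0.02 without KO library 2 and -0.14 without KO library 3, and Rpl36al at -0.03 without WT library 1 and -0.11 without WT library 2. Rps6 had a log2 change of 0.03 (SE 0.09) and Rpsa, the laminin receptor protein of the 40S subunit, one of 0.00 (SE 0.11).

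**Figure D4:**
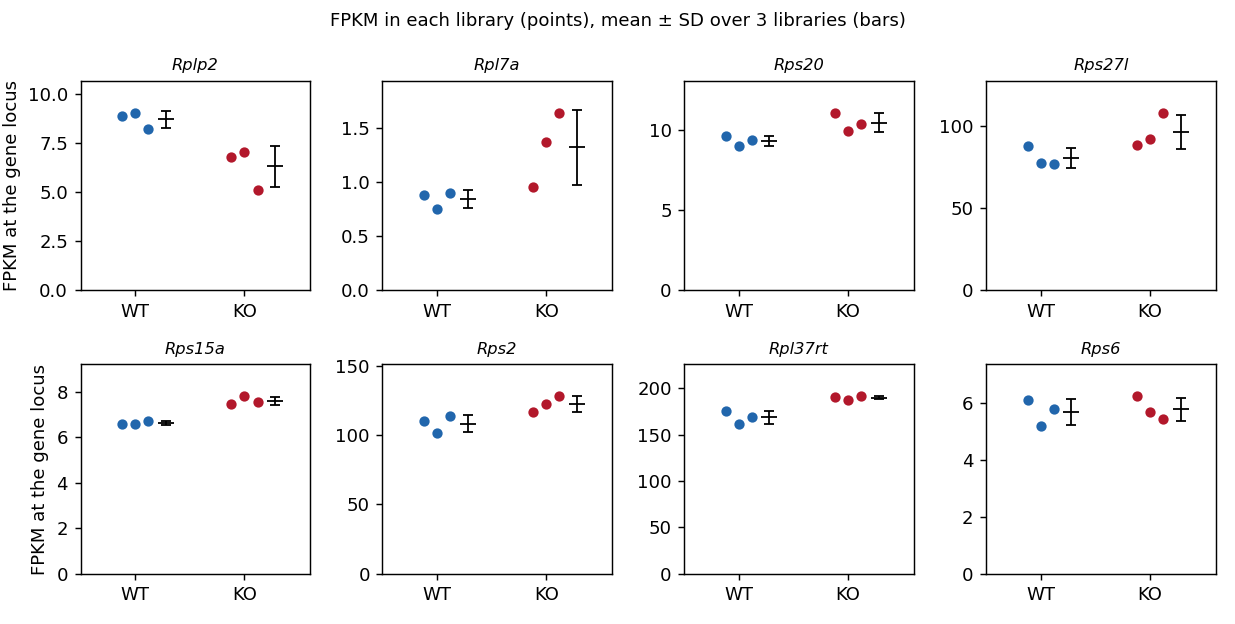
FPKM at the gene locus in each WT and KO library (points) with the mean ± SD over 3 libraries beside them, for 8 members. Rplp2 is lower in all KO libraries, Rpl7a, Rps27l, Rps15a, Rps2, Rpl37rt and Rps20 are higher in all KO libraries, and Rps6 overlaps.

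There were 4 members on the X chromosome, which also carries Fmr1. Rpl39 was at 38.4, 33.4 and 37.7 FPKM in WT and 38.3, 39.8 and 37.2 FPKM in KO, and Rps4x at 33.1, 23.7 and 25.0 FPKM in WT and 28.7, 24.4 and 26.0 FPKM in KO. Their log2 changes were 0.08 (SE 0.06) and -0.04 (SE 0.12), with overlapping groups. Rpl36a was listed at 0.245, 0.185 and 0 FPKM in WT and 0.656, 0.443 and 0 FPKM in KO, and like Rpl10 it was too low to be tested at its own locus.

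Several ribosomal protein genes have a paralog, and the shares of the paralogs at the gene loci overlapped between the genotypes. Rpl22l1 made up 17.1, 15.6 and 20.4% of the pair with Rpl22 in WT and 21.5, 16.7 and 17.7% in KO. Rpl7l1 made up 26.2% ± 1.92 (SD, n = 6) of the pair with Rpl7. These shares are as uncertain as the gene loci themselves. With copies added to both partners, Rpl22l1 held 44.3 to 51.2% and Rpl7l1 7.58 to 8.59% over the libraries.

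Where the parent locus was nearly empty, the share at the gene loci differed most from the share with copies. Rps27l made up 96.4% of the pair with Rps27 at the gene loci but 10.1 to 12.7% with the copies added, most of them Rps27rt. Rpl36al made up 99.2 to 100% of the pair with Rpl36a, and 14.3 to 17.4% with copies. Rpl3l, the striated muscle form of Rpl3, held 0.969 to 6.35% of its pair at the gene loci. The testis-associated Rpl39l and Rpl10l and also Rps4l were listed at 0 in every library.

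The members deviated together within a library. The median deviation of the 66 members from their own means over the 6 libraries, on the log2 scale, was 0.09, -0.14 and -0.07 in WT libraries 1, 2 and 3 and 0.06, 0.01 and 0.04 in KO libraries 1, 2 and 3. For all tested loci it stayed between -0.003 and 0.007. In WT library 1, 50 of the 66 members lay above their own mean, in WT library 2 only 10 and in WT library 3 only 19, and in the KO libraries 47, 37 and 41. The spread among the WT libraries was therefore wider than the distance of the KO libraries from the mean. Without WT library 1 the median log2 change of the members was 0.12, with 22 higher at an unadjusted p below 0.05, and without WT library 2 it was 0.005, with 3 higher.

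**Figure D5:**
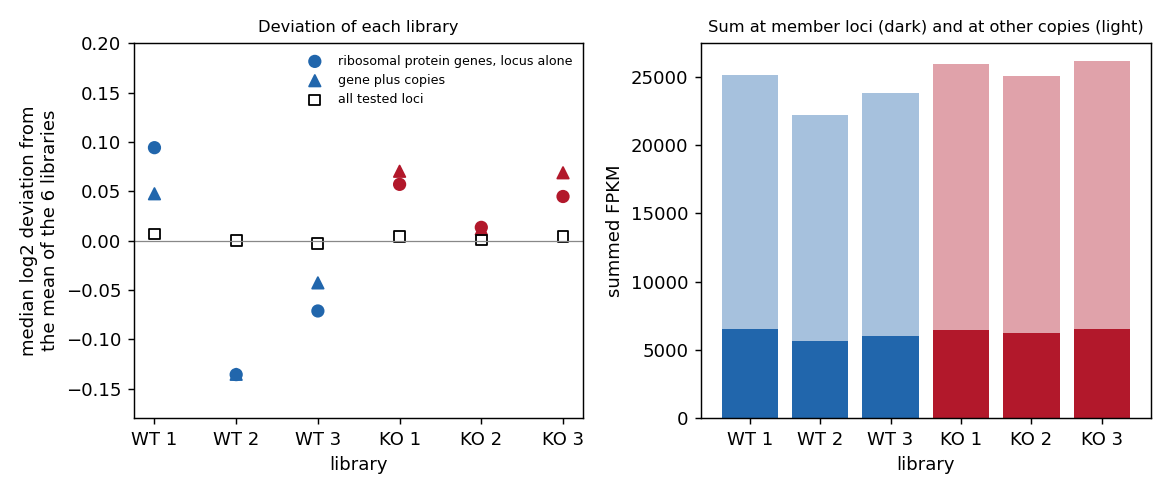
Left, the median log2 deviation of each library from the mean of the 6, for the 66 tested members (circles), for the genes plus copies (triangles) and for all tested loci (squares). Right, the FPKM summed over member loci (dark) and over the other copies (light). WT library 2 is lowest for the members and for the sums, and WT library 1 lies above the KO libraries for the members at left and among them in the sums at right.

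Summed over loci, the members came to 6553, 5670 and 5993 FPKM in the WT libraries and 6467, 6235 and 6502 FPKM in the KO libraries. The copies that are not members came to 18568, 16542 and 17798 FPKM in WT and 19479, 18794 and 19647 FPKM in KO. The copies thus held more FPKM than the named genes in every library. Members and copies together made up 6.07, 5.39 and 4.40% of the FPKM other than Bc1 in WT and 5.52, 5.78 and 5.41% in KO. On that scale the groups overlapped, and WT library 3 was lowest.

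With the copies added to their genes, a choice made after seeing the data, a larger share of genes lay above 0. Of 74 genes with copies that reached 1 FPKM, 66 had a log2 change above 0 and 8 below, with a median of 0.10. None passed the adjusted test. At an unadjusted p below 0.05, 21 were higher and 0 lower in limma, against 6.95% of all loci higher and 7.87% lower in that fit. The lowest adjusted p was 0.0719, for Rps19. WT library 2 was again the lowest, with 3 of the 75 sums above their own mean, against 50 and 15 in WT libraries 1 and 3 and 64, 42 and 61 in the KO libraries.

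Rps19, the 40S protein most often mutated in Diamond-Blackfan anaemia, came to 257, 231 and 240 FPKM with its copies in WT and 295, 287 and 290 FPKM in KO, a log2 change of 0.26 (SE 0.05). At the gene alone it was at 47.0, 34.9 and 39.7 FPKM in WT and 46.7, 44.3 and 44.0 FPKM in KO, and the groups overlapped. The copy Rps19-ps6 on chr12 was at 207, 193 and 199 FPKM in WT and 246, 238 and 243 FPKM in KO. In the listed values the groups thus separated at the copy. How reads were divided between the gene and this copy is not known. Rps26 came to 462, 427 and 423 FPKM in WT and 502, 490 and 518 FPKM in KO (log2 change 0.20, SE 0.05, adjusted p = 0.137 in limma), and Rps28 to 582, 546 and 612 FPKM in WT and 659, 665 and 726 FPKM in KO (log2 change 0.24, SE 0.06, adjusted p = 0.142 in limma).

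Genes around the ribosome were read from lists that are not members. Of the ribosomal proteins outside the symbol rule, 3 were tested, Fau and Rack1 among them. All 3 had a log2 change above 0, and 0 passed an unadjusted p of 0.05 in limma, from 0.09 for Rack1 to 0.50 for Fau. Of 17 other TOP transcripts, among them elongation factors, 10 were above 0 and 7 below, with a median of 0.01. At an unadjusted p below 0.05, against 6.99% of all loci higher and 7.77% lower, 2 were higher, Pabpc1 and Gas5, and none was lower, and the extremes were Tpt1 (0.38) and Eef1g (-0.18). Fau and Tpt1 were low at their own loci as well, at 0.893 to 2.45 FPKM and 7.42 to 16.9 FPKM.

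Of 30 ribosome assembly genes, such as Ncl, Fbl and Polr1a, 13 were above 0 and 17 below, with a median of -0.02 and extremes of 0.16 for Sbds and -0.15 for Eif6. At an unadjusted p below 0.05, 1 was higher and 0 lower. Of 78 mitochondrial ribosomal protein genes 73 were tested, and 27 were above 0 and 46 below, with a median of -0.02. Unadjusted, 3 were higher and 8 lower, beside 6.99% and 7.77% of all loci, and values ran from 0.38 for Mrps33 to -0.25 for Mrps22. The cytosolic members, with 49 of 66 above 0, and the mitochondrial genes therefore had different counts, and the difference was not tested.

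Of 9 regulators of ribosomal protein expression 8 were tested, 7 of them above 0, with a median of 0.12. Unadjusted, 3 were higher, namely Mycn, Rps6kb1 and Rptor, and 0 lower, beside the same shares of 6.99% and 7.77% over all loci. Mycn had the largest value at 0.34 (SE 0.09, adjusted p = 0.162 in limma) and Myc the lowest at -0.11. The kinase gene Mtor was at 5.47, 5.83 and 5.52 FPKM in WT and 6.03, 6.06 and 6.65 FPKM in KO, and Larp1 had a log2 change of 0.04. None of the genes in these lists passed the adjusted test.

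The summed microglial, endothelial, and fibroblast and mural markers did not overlap between the labels, although no single marker passed the adjusted test. The sums of the proliferation, oligodendrocyte lineage, excitatory and inhibitory markers overlapped. The 7 microglial markers summed to 4.16 to 6.29 FPKM in WT and 1.06 to 2.41 FPKM in KO, with Tmem119 at 0 in every library, and 3 of 7 were tested, all of them lower. The 3 endothelial markers summed to 1.11 to 1.37 FPKM in WT and 0.50 to 0.976 FPKM in KO, and the 4 fibroblast and mural markers to 44.5 to 49.5 FPKM and 35.4 to 43.9 FPKM. The 3 proliferation markers summed to 24.3 to 29.3 FPKM in WT and 28.9 to 34.2 FPKM in KO. All 3 had a log2 change above 0. Of these, Mki67 (0.32) and Top2a (0.30) were higher at an unadjusted p below 0.05 in limma, beside 6.99% of all loci. The 6 oligodendrocyte lineage markers summed to 332 to 388 FPKM in WT and 383 to 424 FPKM in KO, with Olig2 (log2 change 0.25) and Pdgfra (0.29) higher at an unadjusted p below 0.05. The excitatory markers summed to 769 to 803 and 798 to 875 FPKM and the inhibitory markers to 149 to 152 and 142 to 153 FPKM. Of the 3 excitatory markers 2 were above 0 and 1 below, with Camk2a (0.16) higher at an unadjusted p below 0.05 in limma. The part of these marker differences in the values of the ribosomal protein genes was not tested.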

How the data were processed

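RNA-seq of 6 libraries was analysed, with groups and replicate numbers taken from the labels. Per the methods, the authors cleaned the reads (adapter clipping by Fastx Clipper, trimming by sickle, a filter on junk sequence), aligned them to GRCm38 by TopHat2 and used Cufflinks and Cuffdiff to assemble genes and compare genotypes. The deposited values used here are the authors' FPKM per library. Not given in the sources used here: tool versions, annotation, library scaling and the treatment of multiply mapped reads. The deposited group FPKM, p-values and q-values of the authors' own comparison were not used. Because FPKM are not counts, no count test was run and the depth is unknown. Whether the libraries came from separate cultures is not stated per library, so p-values measure only the spread between these samples.

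Loci with a mean of at least 1 FPKM in either genotype were tested with limma 3.58.1 (R 4.3.3) on log2(FPKM + 0.1), with genotype as the only term, a mean-variance trend, two-sided tests and Benjamini-Hochberg adjustment over all 13195 loci. The script was tested on simulated data. Copies were searched in GENCODE M21 transcripts with blastn 2.17.0; of 93 members 86 had a coding sequence, each copy was assigned to its best-scoring member and transcripts over 2 times the length of the member's were left out. Members named are those past the adjusted test, the 5 largest values in each direction, the 5 highest and 5 lowest levels among tested members, paralog pairs, Rps6, Rpsa, stalk and X-linked genes; further genes, such as those with the lowest unadjusted p, were named after their values were seen. The members, lists and tests were chosen with earlier results of these data known. Alternatives were other pseudocounts (1 and 0.01), no minimum or a minimum of 5 FPKM, other scalings, no trend, a replicate block, removal of a gene span trend, loci summed by symbol and each library left out. A few single genes are not reported here and are left out of the plots that name genes.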

Additional observations from a re-analysis of the deposited data

How the results depend on the processing

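No member passed an adjusted p below 0.05 in limma under any of the 17 alternatives, while the count at an unadjusted p below 0.05 (9 higher and 1 lower in the fit as reported) did depend on the setting. The count of members higher was 2 with each library scaled by its FPKM sum without Bc1 and 22 with copies added to the parent gene (a choice made after seeing the data), and 3 to 22 with 1 library left out, where 22 is without WT library 1, 3 without WT library 2 and 5 without KO library 3. The count lower was 2 with the replicate block and with the gene span trend removed, and 1 to 2 with a library left out. The median log2 change of the members was 0.07 in the fit as reported and 0.005 to 0.12 with a library left out. Every alternative moved it by less than 0.085, the spread between libraries. Scaling without Bc1 gave 39 of 67 members above 0 in place of 49 of 66, with a median of 0.03 for the members and -0.03 for all loci. The cause was not tested in any of these cases.

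Over all loci, 12 were higher and 23 lower at an adjusted p below 0.05. These counts were 6 and 9 with no FPKM minimum, 38 and 50 when scaled without Bc1, 7 and 14 without the trend, and 29 and 36 with the replicate block. The higher count was 20 with a minimum of 5 FPKM and 22 with the gene span trend removed. With a library left out they were 4 to 8 and 10 to 14.

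Of the 14 single genes that were followed through the settings in which they were tested, Rps6 and Rpl10a changed sign. Rps6 was at -0.0054 when scaled without Bc1 and ran from -0.0391 to 0.0762 with a library left out, below 0 without WT library 2 and without KO library 1, and with copies added Rpl10a was at 0.0227. Of the 53 members tested both alone and with copies, 9 had opposite signs. The correlations between libraries do not settle whether replicate numbers pair the samples. Same-numbered libraries had correlations of 0.243, 0.0577 and 0.0801 of their deviations from the genotype means, not all above 0.1. Differently numbered libraries had correlations from -0.152 to 0.0781. The paired fit with the replicate block called 0 members and gave 12 members higher unadjusted. Its lowest adjusted p among the members was 0.0603 in limma. Paralog shares moved by less than their spread. The unknown depth and the shared sequence of genes and copies limit every single level.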
